A study of Mus musculus with 4 samples.

Results

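The replication-dependent histone genes of mouse embryonic stem (ES) cells were examined before and after depletion of Zfp574, to ask whether their transcription changed and whether the linker histone family and the 4 core families differed. They were chosen by name, as the genes whose older mouse symbol begins with Hist1h to Hist4h. The deposited count table kept such a symbol for 3 genes only (Hist1h2an, Hist1h2bp and Hist1h4n), because it uses the newer symbols for the rest. Matching gene identifiers to GENCODE M21, which still carries the older symbols, gave 47 of the 12486 genes in the table: 6 H1, 13 H2A, 13 H2B, 6 H3 and 9 H4 genes, of which the last 4 families hold 41 core histone genes. GENCODE M21 has 70 genes with such symbols, and the other 23 were not analysed here. The 47 genes lie in 41 cases in the Hist1 group on chromosome 13, in 4 cases in the Hist2 group on chromosome 3, and singly on chromosomes 11 (H2bu2) and 6 (H4f16). All coordinates are those of mm10.

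The measurements were PRO-seq counts, in which nascent RNA is labelled at its 3′ end by polymerases that run on in isolated nuclei, so that a count stands for engaged polymerase rather than for stored transcript. Every library came from the same kind of cell, the AID-Zfp574 line, in which both groups carry an N-terminal auxin-inducible degron on Zfp574 in a parental line that expresses OsTir1, the plant receptor that couples the degron to the proteasome, together with ARF16-HA and mCherry from an EF1a promoter between FRT and F3 sites. The tagged line was picked as an individual clone from diploid AN3-12 ES cells (written AN3-128 in the labels), which derive from the originally haploid HMSc2 and were grown without feeders in medium with serum and LIF. The control group was 2 libraries at 0 h with no auxin, and the depletion group was 2 libraries after 6 h of 500 uM IAA (indole-3-acetic acid, an auxin), so that loss of Zfp574 and exposure to auxin cannot be told apart. The methods call them biological replicates, and neither they nor the labels say more of how the replicates were separated.

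Replication-dependent histone genes are short genes, nearly all without introns, that supply histones to newly made DNA and are transcribed chiefly while a cell copies its genome. H2A, H2B, H3 and H4 form the nucleosome core around which DNA is wrapped, and H1 binds the linker DNA between cores. Their transcripts end in a conserved stem-loop in place of a poly(A) tail. The stem-loop is bound by the protein Slbp and cut with the help of the U7 small nuclear ribonucleoprotein, and the genes are transcribed at a nuclear body organised by Npat.

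The stem-loop is printed here as a typical feature of these genes. It was searched for in the 47 genes only, so it is not compared with other histone genes. A match with a 6-base-pair stem and a 4-base loop was found within 100 bases after the stop codon in 45 of the 47 genes, at a median of 32 bases and between 22 and 56 bases. Hist1h2an and Hist1h2bp had no match in that window. For Hist1h2bp the stop codon used was the most distal one annotated. It closes a coding span of 1546 bases in 3 pieces, against 378 bases in 1 piece for H2bc8. Sequence after any nearer stop codon of Hist1h2bp was not searched. In the 6 distinct forms, read 5′ to 3′ on the gene's strand from the GRCm38.p6 genome, capitals mark the paired stem and lower case the loop.
form of 26 genes (5 H1, 10 H2A, 8 H2B and 3 H3): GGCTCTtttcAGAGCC
form of 9 genes (1 H1, 1 H2A, 4 H2B and 3 H3): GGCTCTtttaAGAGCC
form of 6 H4 genes: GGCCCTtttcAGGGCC
form of H4c11 and H4c2: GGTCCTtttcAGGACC
form of H4c14: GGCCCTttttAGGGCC
form of H2ac20: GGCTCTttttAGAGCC
The H4 genes thus differed from the other families in the stem itself, while the H1, H2A, H2B and H3 genes shared 1 stem and differed in the last base of the loop.

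The families also differed in the letters upstream of their start sites. A RefSeq start (GRCm38.p6) was found for 43 of the 47 genes, and 5 short words were searched on both strands in the 250 bases upstream. The letters CCAAT were present in every matched H1, H2A, H2B and H3 gene and in 2 of 8 H4 genes, against 34.5% of all 27025 promoters. ATTTGCAT, the octamer that POU-family factors bind, was found in 6 of 13 H2A and 5 of 12 H2B genes, in no matched gene of the other families, and in 1.61% of all promoters. An H2A and an H2B gene that face away from each other share most of this window, so an octamer between them is counted once for each gene. AAACACA, known as the H1 box, was in 5 of 6 H1 genes, the exception being H1f1, in 2 H2A and 2 H2B genes, and in 6.22% of all promoters. TATAAA was in 23 of the 43 genes and in 3504 of the 27025 promoters. GGTCCG, which was added after the promoters had been read, was in 6 of 8 H4 genes, 1 H2B gene, 1 H3 gene and 6.82% of all promoters. A match of letters is a description and not a site of binding.

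For 1 gene of each family the 120 bases before the RefSeq start are given, 5′ to 3′ on the gene's strand, with these words in capitals on either strand. H1f2 was chosen for the highest level per length of the 47 genes, H2ac13 for the smallest p, H2bc8 for its octamer, H3c6 as an H3 gene with a matched start, and H4c4 for the highest count of its family.
H1f2, chr13:23738687-23738806, plus strand: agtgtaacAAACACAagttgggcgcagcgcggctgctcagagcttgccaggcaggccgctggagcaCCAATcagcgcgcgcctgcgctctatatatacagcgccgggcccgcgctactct
H2ac13, chr13:21716292-21716411, plus strand: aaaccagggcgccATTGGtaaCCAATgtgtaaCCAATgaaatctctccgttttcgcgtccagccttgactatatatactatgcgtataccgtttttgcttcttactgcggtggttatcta
H2bc8, chr13:23571280-23571399, plus strand: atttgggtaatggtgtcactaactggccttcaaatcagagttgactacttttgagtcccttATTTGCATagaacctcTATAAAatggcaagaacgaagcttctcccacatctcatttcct
H3c6, chr13:23562386-23562505, minus strand: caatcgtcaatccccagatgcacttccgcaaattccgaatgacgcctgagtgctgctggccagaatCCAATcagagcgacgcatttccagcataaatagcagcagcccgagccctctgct
H4c4, chr13:23581448-23581567, plus strand: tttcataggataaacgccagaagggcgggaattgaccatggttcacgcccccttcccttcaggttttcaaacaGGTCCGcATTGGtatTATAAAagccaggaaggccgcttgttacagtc
ATTGG is CCAAT read from the opposite strand.

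None of the histone genes changed past the threshold after 6 h of Zfp574 depletion. Of the 47 genes, 45 passed the filter on low counts and were tested, with edgeR's quasi-likelihood test and Benjamini-Hochberg adjustment over all 11853 genes tested. At an adjusted p under 0.05, 0 of the 45 were lower and 0 were higher, against 2.51% of all genes, 1.4% lower and 1.11% higher. The smallest of edgeR's adjusted p values was 0.101, for H2ac13. With a change of at least 2-fold added, 0 were called in either direction, against 0.321% of all genes lower and 0% higher. At an unadjusted p under 0.05 in edgeR there were 8 of 45 genes (17.8%), against 16.2% of all genes. Of these 8, 4 were lower and 4 higher, against 7.66% and 8.53% of all genes. DESeq2 gave 0 of the 45, and its share of all genes at that p was not counted. At an adjusted p under 0.05, DESeq2 called 75 of all 11853 genes, against 298 in edgeR. The number of histone genes with an unadjusted p under 0.05 in edgeR depended on which library was left out. The shares of all genes in those fits were not counted. With all libraries the 4 lower genes were H2ac13, Hist1h2bp, H2bc12 and H2bc3, and the 4 higher ones H1f1, H1f2, H4c8 and H4c2. H2ac1 (6 and 8 counts in the control libraries, 10 and 8 after depletion) and Hist1h4n (5 and 3 counts, then 11 and 12) were not tested.

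The precision was enough to bound most of these genes. The 95% interval of the fold change lay within 1.2-fold in either direction for 16 of the 45 genes, within 1.5-fold for 37 (82.2%) and within 2-fold for 44 (97.8%). The exception at 2-fold was H2bu2, which had the largest standard error of the 45 genes. The median log2 fold change was 0.03 over the 45 genes and −0.0021 over all genes tested, and 26 of the 45 (57.8%) lay above 0, against 49.4% of all genes. Both depletion libraries lay above both control libraries in 13 of the 45 genes (28.9%, against 23.4% of all genes) and below them in 6 (13.3%, against 22.9%). All these fold changes are relative to TMM scaling. With the size factors behind the deposited table of the authors' comparison, the median of all genes was −0.11 and that of the 45 histone genes −0.08, so that the difference between them stayed at 0.03 while the sign turned. These factors were recovered from the table, and they differ between replicates although the methods describe 1 spike-in factor per condition. Their derivation remains unclear. Among genes of like length, the 81 tested genes shorter than 1000 bases, of which 34 are histone genes of the 45, had a median of −0.0074. The 346 shorter than 2000 bases, which include these 81, had a median of −0.05. Both sets contain histone genes, so neither is a separate background for them. With a smooth trend on gene length removed from each library the median of the 45 histone genes lay 0.07 above that of all genes.

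**Figure D1:**
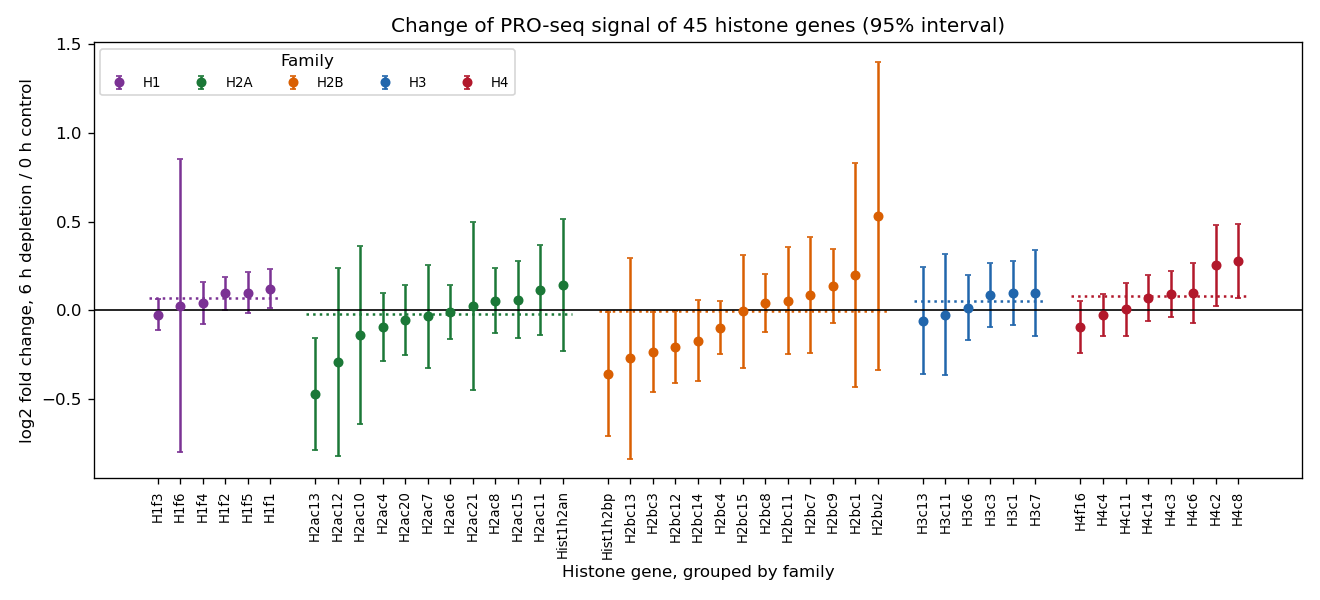
Log2 fold change (6 h depletion over 0 h control, y axis) of each of the 45 tested histone genes (x axis), ordered by value within the 5 families; points are fitted values, bars 95% intervals, dotted lines family medians, and the black line the median of all genes. The points run from −0.47 for H2ac13 to 0.53 for H2bu2, most intervals hold 0, and the family medians lie between −0.02 and 0.08.

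The 47 genes together took 0.588% and 0.585% of the counts of the control libraries and 0.578% and 0.592% after depletion. In CPM (counts scaled to 1000000 per TMM-adjusted library), their sum was 5826 and 5771 CPM in the controls, against 5871 and 5976 CPM after depletion. The depletion libraries were thus higher by a log2 ratio of 0.03. With the size factors behind the deposited table it was −0.07, with both depletion libraries below both controls. By column totals it was −0.0026, with overlapping groups. With 2 libraries against 2, an exact two-sided permutation test of such a sum cannot go below p = 0.333, so no sum is given a test here. In a mixed culture, fewer cells in S phase and less transcription per cell cannot be told apart from such sums.

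The linker histone family carried most of the counted signal. H1 genes summed to 3428 and 3320 CPM in the controls, against 3480 and 3500 CPM after depletion. The means were 3374 ± 76.7 and 3490 ± 13.8 CPM (SD, n = 2). Both depletion libraries lay above both controls, by a log2 ratio of 0.05. With the size factors behind the deposited table it turned to −0.05, with both depletion libraries below both controls. It was 0.02, with overlapping groups, when column totals set the scale. The 6 H1 genes held from 57.5% to 59.3% of all histone counts in the 4 libraries. The 41 core genes summed to 2398 and 2451 CPM in the controls, against 2391 and 2477 CPM after depletion, and the groups overlapped. With the size factors behind the deposited table their log2 ratio was −0.097, with both depletion libraries below both controls. By column totals it was −0.03, with overlapping groups. The ratio of H1 to core signal was 1.43 and 1.35 in the controls, whereas it was 1.46 and 1.41 after depletion, and these overlapped as well. Only reads with a single best position were counted. The median share of a gene's sequence that is unique was 94.2% for H1 and 40.3% for the core genes. The H1 share and this ratio thus compare counted reads and not transcription of the families. How far uniqueness raised them was not tested.

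Among the core families the directions differed and the sizes were small. H2A genes summed to 476 and 500 CPM in the controls, against 464 and 491 CPM after depletion, which overlapped. With the size factors behind the deposited table their log2 ratio was −0.13, with both depletion libraries below both controls. By column totals it was −0.06, with overlapping groups. H2B genes summed to 528 and 546 CPM in the controls, against 501 and 521 CPM after depletion, both below the controls, or 537 ± 12.4 against 511 ± 14.5 CPM (SD, n = 2). Their log2 ratio was −0.07, and it was −0.17 with the size factors behind the deposited table and −0.11 by column totals, in each case with both depletion libraries below the controls. H3 genes summed to 288 and 305 CPM against 312 and 303 CPM, which overlapped. H4 genes summed to 1105 and 1101 CPM against 1114 and 1162 CPM, both above the controls, with a log2 ratio of 0.04 that was −0.06 with the size factors behind the deposited table and 0.01 by column totals, with overlapping groups in both.

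**Figure D2:**
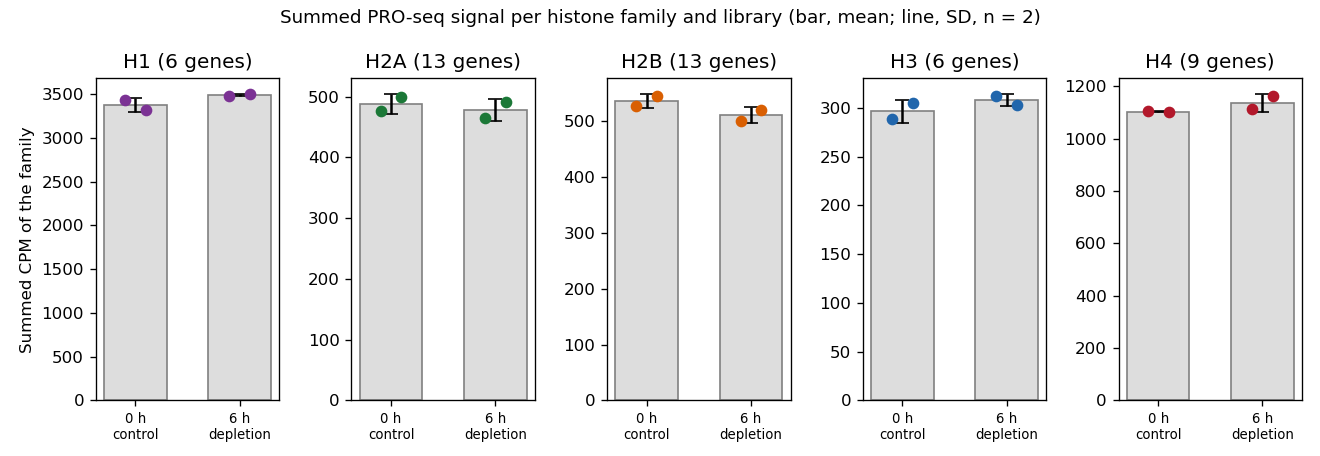
Summed PRO-seq signal in CPM (y axis, from 0, with its own scale in each panel) of the H1, H2A, H2B, H3 and H4 families in the 0 h control and 6 h depletion groups (x axis); points are libraries, bars means and lines SD (n = 2). The depletion means are 3490 CPM for H1 and 1138 CPM for H4, the libraries of the other 3 families lie between 288 and 546 CPM, and the 2 groups overlap for H2A and H3.

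As medians over genes, the log2 fold change was 0.07 for H1 (5 of 6 genes above 0), −0.02 for H2A (5 of 12), −0.0074 for H2B (6 of 13), 0.05 for H3 (4 of 6) and 0.08 for H4 (6 of 8). The H1 median lay 0.05 above that of the 39 core genes tested, which was 0.01. This difference was 0.11 without control replicate 1, −0.0041 without control replicate 2, 0.10 without depletion replicate 1 and 0.06 without depletion replicate 2. These medians are descriptions of lists and carry no test. All 5 family medians varied with the library left out or the members counted. For H1 and H2A these changes stayed within the spread between replicates (0.07 and 0.13). For H2B, H3 and H4 some of them exceeded that spread. The H1 median was 0.11 when control replicate 1 or depletion replicate 1 was left out, and 0.03 without control replicate 2. The H2A median was −0.09 without control replicate 1, −0.01 without control replicate 2, −0.04 without depletion replicate 2 and 0.01, with a change of sign, without depletion replicate 1. The H2B median was −0.02 without control replicate 1, 0.06 without control replicate 2, 0.02 when depletion replicate 2 was left out, 0.14 over the 5 genes with mostly unique sequence and −0.11 over the 9 genes whose counts averaged 100 or more. The H3 median was 0.15 without control replicate 2 and 0.09 without depletion replicate 2. The H4 median was 0.13 without control replicate 1, 0.10 without depletion replicate 1, 0.03 without depletion replicate 2, and 0.0045 over the 5 genes with mostly unique sequence.

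How much of a histone gene the counting could see differed between families, since the authors kept only reads with a single best position and these genes are near copies of each other. The reads were 36 bases with an 8-base identifier, so uniqueness was measured as the share of 28-base stretches of a gene that occur once in the genome. The median share was 94.2% for H1, 65.2% for H4, 40.3% for H2B, 31.6% for H2A and 29.3% for H3. Within the coding part it was 81.53% for H1, 30.50% for H4, 15.95% for H2B, 12.86% for H3 and 11.02% for H2A. At least 50% of the stretches were unique in 20 of the 47 genes, among them all 6 H1 genes and no H3 gene. That share is taken over the whole gene span. H2bc4 is among these 20 genes, although 0.0% of the stretches in its coding part are unique. Reads from repeated stretches were not counted, so the levels of such genes are undercounted, and with mismatches allowed in mapping a gene's reads may in part belong to a near copy.

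Per kilobase of the GENCODE M21 gene span, the median level was 343 CPM per kb for H1, 144 for H4, 69.0 for H3, 43.4 for H2A and 40.9 for H2B. The highest were H1f2 at 647, H1f5 at 638 and H1f1 at 514 CPM per kb, and the lowest was H1f6, the testis linker histone, at 3.00 CPM per kb. Spans longer than the coding part, such as 7425 bases for H1f3 and 8710 bases for H2bc4, lower this value, and the exact transcript the authors counted is not given in the sources used here.

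**Figure D3:**
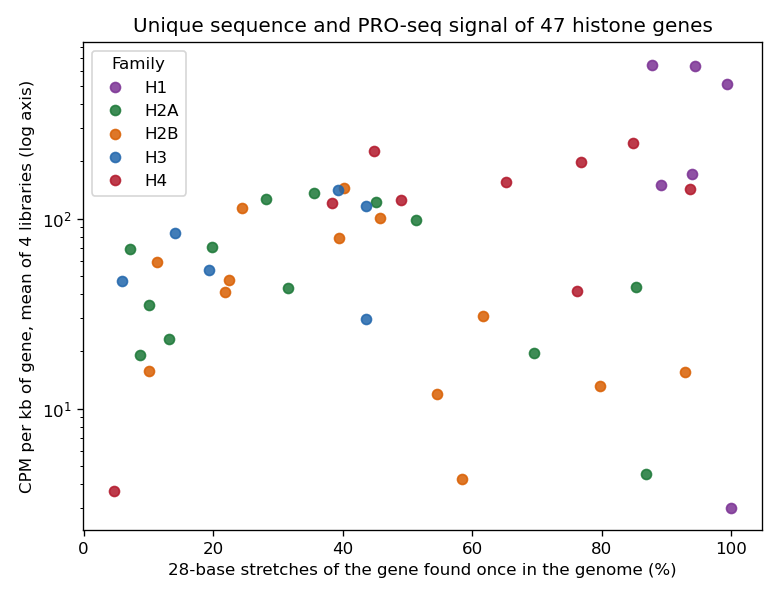
Level in CPM per kb of gene, mean of the 4 libraries (y axis, log axis), against the share of 28-base stretches found once in the genome (x axis, percent) for the 47 histone genes, coloured by family. H1 genes lie at 87.8% or more, with H1f2, H1f5 and H1f1 as the highest points, the H3 genes lie at 43.7% or less, and H2A and H2B genes spread from 7.1% to 92.8%.

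Within the H1 family, H1f3 and H1f2 held the largest shares of counts. These shares are not corrected for length. Per kb of its span of 7425 bases H1f3 was at 172 CPM, below H1f2, H1f5 and H1f1. Of all H1 counts, H1f3 held 36.9% and 39.5% in the controls, then 36.5% and 36.1% after depletion. H1f2 held 29.4% and 28.4%, then 29.8% and 30.0%. H1f5 followed with 12.8% to 14.3% over the 4 libraries, H1f1 with 10.8% to 11.5%, H1f4 with 8.13% to 8.64% and H1f6 with 0.0701% to 0.0904%. The order of the 6 genes was the same in every library.

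H1f3 (ENSMUSG00000052565, chromosome 13, 23553262 to 23560686, plus strand) had the highest count of the 47 genes. It measured 1266 and 1311 CPM in the controls, against 1269 and 1264 CPM after depletion, so that the groups overlapped. Its log2 fold change was −0.03 (standard error, SE, 0.04), with a 95% interval from −0.11 to 0.06, the narrowest of the family. H1f1 (chromosome 13, 23763666 to 23764406, plus strand) had the highest fold change of the family. It measured 371 and 358 CPM in the controls, against 391 and 402 CPM after depletion, both above the controls. The log2 fold change was 0.12 (SE 0.05), and edgeR's adjusted p was 0.243.

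The other somatic H1 genes, which encode closely related linker histones, lay between these values. H1f2 (chromosome 13, 23738808 to 23740367, plus strand) measured 1009 and 942 CPM in the controls, against 1036 and 1049 CPM after depletion, both above the controls, with a log2 fold change of 0.10 (SE 0.05). H1f5 (chromosome 13, 21779883 to 21780625, minus strand) measured 489 and 427 CPM in the controls, against 482 and 497 CPM after depletion, which overlapped. Its controls differed, and without control replicate 1 the log2 fold change was 0.20 and the adjusted p in edgeR 0.0292, against 0.10 and 0.416 with all libraries and 0.00073 without control replicate 2. H1f4 measured 291 and 279 CPM against 301 and 284 CPM, and H1f6 lay between 2.40 and 3.03 CPM in all libraries.

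Among the H2A genes, H2ac13 stood nearest to the threshold. H2ac13 (ENSMUSG00000071516, chromosome 13, 21716422 to 21716814, plus strand, older symbol Hist1h2ai) had 92 and 130 counts in the controls, against 115 and 149 after depletion, or 27.6 and 35.5 CPM against 19.3 and 26.5 CPM. Both depletion libraries lay below both controls, by little in the case of 26.5 against 27.6 CPM. The log2 fold change was −0.47 (SE 0.15) with a 95% interval from −0.79 to −0.16, and edgeR's adjusted p was 0.101. Only 7.1% of its 28-base stretches are unique. It passed the threshold with the size factors behind the deposited table (−0.58, adjusted p 0.0102), with the replicate number as a block (−0.46, adjusted p 0.0269) and without control replicate 1 (−0.63, adjusted p 0.00816) in edgeR. Without depletion replicate 2 the log2 fold change was −0.71 (adjusted p 0.0530 in edgeR), without control replicate 2 it was −0.28, and it was −0.26 without depletion replicate 1. In DESeq2 its adjusted p was 1.00.

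H2ac6 (chromosome 13, 23681467 to 23683948, minus strand) had the highest count of the H2A genes and nearly the same level in all libraries. It measured 108 CPM in each control and 106 and 109 CPM after depletion, with a log2 fold change of −0.01 and a 95% interval from −0.16 to 0.14. Hist1h2an (chromosome 13, 21786826 to 21787218, minus strand) had the highest fold change of the family, 0.14 (SE 0.18), from 13.2 and 13.1 CPM in the controls to 14.4 and 14.6 CPM after depletion. Of the 12 H2A genes tested, both depletion libraries lay below the controls in 2 and above them in 2, and the groups overlapped in the other 8. The groups did not overlap in 46.3% of all genes tested.

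The fold changes of the H2B genes spanned the widest range of the 5 families. H2bc4 (chromosome 13, 23684199 to 23692908, plus strand) had the highest count of the family. It measured 137 and 144 CPM in the controls, against 123 and 140 CPM after depletion, which overlapped. Its log2 fold change was −0.10 (SE 0.07). Over its whole span 92.8% of the stretches are unique, but 0.0% in the coding part, so its counts say little of that part. Hist1h2bp (chromosome 13, 21787461 to 21789213, plus strand) was the lowest at −0.36 (SE 0.17, adjusted p in edgeR 0.291), from 29.5 and 22.4 CPM to 16.5 and 23.8 CPM, which overlapped. H2bu2 (chromosome 11, 58948920 to 58949533, plus strand) was the highest at 0.53, with a standard error of 0.42. It had 5 and 10 counts in the controls, against 19 and 17 after depletion, or 1.503 and 2.73 CPM against 3.19 and 3.03 CPM. Of the 13 H2B genes, both depletion libraries lay below both controls in 3 (H2bc12, H2bc3 and H2bc14), against 22.9% of all genes tested. Both lay above both controls in 3 (H2bu2, H2bc9 and H2bc1), against 23.4% of all genes tested. The groups overlapped in the other 7. H2bc12 went from 61.0 and 55.7 CPM to 49.7 and 51.1 CPM, at −0.21 (SE 0.10), and H2bc3 from 51.7 and 58.7 CPM to 50.9 and 42.7 CPM, at −0.24 (SE 0.11). H2bc14 was at −0.17 (SE 0.11), H2bc9 at 0.14 (SE 0.10) and H2bc1 at 0.20 (SE 0.31).

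Each H2A gene that faces away from an H2B gene shares its upstream sequence with that neighbour, so the pair can be compared directly. There were 9 such divergent pairs with starts 175 to 305 bases apart, and both genes were tested in 8 of them. The fold changes of the partners had the same sign in 5 of the 8 pairs, and the H2A gene had the higher value in 5. H2ac13 and H2bc13 were both below 0, at −0.47 and −0.27, as were H2ac12 and H2bc12, at −0.29 and −0.21. Hist1h2an and Hist1h2bp lay on opposite sides, at 0.14 and −0.36. H2ac8 and H2bc8, whose shared window holds the octamer printed above, were at 0.05 and 0.04 with standard errors of 0.09 and 0.08. The difference between the partners was smaller than its combined standard error in 7 of the 8 pairs, the exception being Hist1h2an and Hist1h2bp (0.50, with a combined standard error of 0.25). That exception rested on single libraries, since the difference was 0.31 (combined SE 0.31) without control replicate 1 and 0.26 (combined SE 0.28) without depletion replicate 1.

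**Figure D4:**
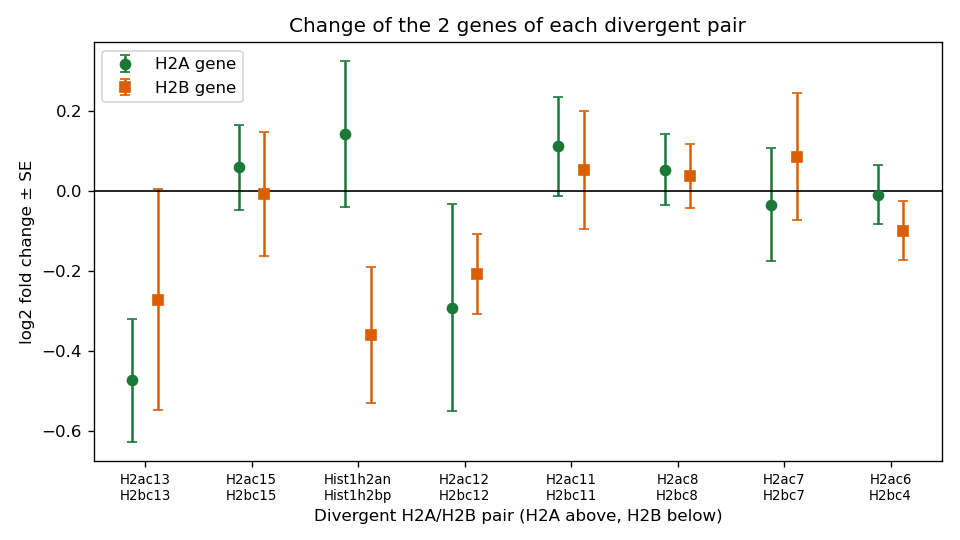
Log2 fold change with its standard error (y axis) of the H2A gene (circle) and the H2B gene (square) of each of the 8 divergent pairs in which both were tested (x axis). In 5 pairs both lie on the same side of 0, and the widest gap is that of Hist1h2an and Hist1h2bp, at 0.14 and −0.36.

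No H3 gene stood apart. H3c1 (chromosome 13, 23761853 to 23762386, minus strand), the H3 gene with the highest count, measured 70.3 and 74.8 CPM in the controls, against 79.1 and 76.2 CPM after depletion. Both depletion libraries were above the controls, with a log2 fold change of 0.10 (SE 0.09). H3c7 was the highest of the family at 0.10 (SE 0.12), and H3c13, on chromosome 3, the lowest at −0.06 (SE 0.15). None of the 6 H3 genes had an unadjusted p under 0.05 in edgeR, and none has unique sequence over 43.7% of its length.

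Of the 8 H4 genes tested, 6 had a fold change above 0 and none passed the threshold. H4c8 (chromosome 13, 23531050 to 23531519, plus strand) had the highest fold change of the family. It measured 53.5 and 52.7 CPM in the controls, against 59.6 and 69.2 CPM after depletion, both above the controls, with a log2 fold change of 0.28 (SE 0.10) and an adjusted p in edgeR of 0.156. H4c2 was at 0.25 (SE 0.11), from 46.3 and 40.9 CPM to 47.9 and 55.9 CPM. H4c4 (chromosome 13, 23581598 to 23582735, plus strand) had the highest count of the family and measured 277 and 300 CPM in the controls, against 281 and 285 CPM after depletion, which overlapped, with a log2 fold change of −0.03 (SE 0.06). H4f16, the H4 gene on chromosome 6, was the lowest at −0.10 (SE 0.07).

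The genes lie in 2 groups along chromosome 13, and this split was looked at after the values were seen. Between 21715763 and 22043676, 14 genes were tested, 8 below 0 and 6 above, with a median of −0.02 on the log2 scale and a median unique share of 19.9% over the 15 genes there. Between 23531050 and 23934851, 25 genes were tested, 17 above 0 and 8 below, with a median of 0.05 and a median unique share of 50.2% over 26 genes. The difference was not tested.

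Genes for the proteins that make and mature histone transcripts were examined next. Of 27 genes listed for histone gene transcription and 3′ end processing, 26 were tested, 1 was lower, 0 were higher and 25 were not called, with a median log2 fold change of −0.03. The shares over all genes tested were 1.4% lower and 1.11% higher. Slbp, the stem-loop binding protein, measured 119 and 113 CPM in the controls, against 108 and 114 CPM after depletion, with a log2 fold change of −0.07 (SE 0.07). Npat, the coactivator of histone genes, was at 0.08 (SE 0.10), and Casp8ap2, a partner in the histone locus body, at −0.06 (SE 0.11). The lower gene was Snrpg, a protein of the Sm ring found in spliceosomal and U7 particles, at −0.32 (SE 0.09) and an adjusted p of 0.0468 in edgeR. Its call was lost in 7 of 14 other settings, each fit that left out 1 library included, with adjusted p in edgeR from 0.0894 to 0.353 in those fits.

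Histone variants listed as replication-independent come from other genes, which were read beside the 47. Whether each of them is made throughout the cell cycle was not examined. Of 11 such variant genes, all tested, 1 was lower, 2 were higher and 8 were not called. Of all genes tested, 1.4% were lower and 1.11% higher. H2ax, whose protein is phosphorylated at DNA breaks, measured 414 and 387 CPM in the controls, against 331 and 316 CPM after depletion, a log2 fold change of −0.31 (SE 0.06) and an adjusted p of 0.000921 in edgeR. It kept its call in 13 of 14 other settings, and lost it without depletion replicate 2 (adjusted p 0.123 in edgeR). Macroh2a1, which encodes the macroH2A1 variant, rose from 476 and 413 CPM to 619 and 549 CPM, a log2 fold change of 0.40 (SE 0.06) and an adjusted p of 0.000150 in edgeR, and lost its call without depletion replicate 1 (adjusted p 0.0810). It is a long gene, of 62743 bases, and with the trend of fold change on gene length removed it was at 0.33 (adjusted p 0.00115 in edgeR). H1f10, a replication-independent linker histone, rose from 189 and 147 CPM to 221 and 204 CPM, a log2 fold change of 0.34 (SE 0.08) and an adjusted p of 0.0119 in edgeR. Its call was lost in DESeq2 (adjusted p 0.314) and without control replicate 2 (0.235), depletion replicate 1 (0.261) or depletion replicate 2 (0.0584) in edgeR. The directions of these 3 genes held under each of the scalings tried.

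Genes of the cell cycle are given beside these results, because histone transcription follows S phase. Of 20 G1/S genes, all tested and 3 of them also in the list above (Slbp, Ccne1 and Ccne2), 1 was lower and 0 were higher, with a median of −0.11 on the log2 scale and 17 below 0. Among all genes tested 1.4% were lower, 1.11% were higher, and 49.4% lay above 0. The lower gene was Rrm2, a subunit of ribonucleotide reductase, at −0.44 (SE 0.09) and an adjusted p of 0.00540 in edgeR, which was lost in DESeq2 (0.306) and without depletion replicate 1 (0.130). Of 15 mitotic genes, 0 were called in edgeR's quasi-likelihood test, with a median of −0.12 and 10 below 0. Their summed level was 1327 and 1313 CPM in the controls, against 1263 and 1286 CPM after depletion, and that of the G1/S genes 2424 and 2317 CPM against 2159 and 2162 CPM. Under TMM scaling both depletion libraries lay below both controls in both lists, whereas for the summed replication-dependent histone signal they lay above. With the size factors behind the deposited table both depletion libraries lay below both controls for the histone sum too. By column totals the groups overlapped for that sum. The sums of the 2 cell cycle lists were not computed under other scalings. The part of cell cycle distribution in the histone values was not tested.

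The libraries matched their labels as ES cells. Of 10 ES cell markers, 9 were in the table used, with sums between 4152 and 4277 CPM in the 4 libraries. Most of each sum came from Esrrb and Tfcp2l1, with means of 1764 and 1431 CPM in the controls. Of the 9 markers, 4 had a fold change above 0 and 5 below. Among them 1, Utf1, was called lower (log2 fold change −0.61, adjusted p 0.00358 in edgeR). Its call was lost in DESeq2 and without control replicate 2 or depletion replicate 2. Of 13 markers of differentiated or feeder cells, 5 were in the table. They summed to 33.7 and 38.8 CPM before depletion and 39.6 and 42.7 CPM after it, so that both depletion libraries lay above both controls. Sox17, Foxa2 and Thy1 were too low to be tested, and Sox1 and Pax6 were not called, with Pax6 at 0.56 (SE 0.23, adjusted p 0.224 in edgeR). The part of such cells in the histone values was not tested. Zfp574 itself had 80 and 130 counts in the controls, against 195 and 219 after depletion, a log2 fold change of 0.25 (SE 0.14), which does not check the depletion because the degron acts on the protein. Total counts ranged from 3298864 to 6045216 per library, and the depletion libraries were the deeper ones.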

How the data were processed

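PRO-seq libraries of AID-Zfp574 ES cells (2 at 0 h, 2 after 6 h of IAA) were analysed from the deposited table of raw counts per gene. The authors separated identifiers, trimmed adapters with cutadapt 1.18, mapped reads to mm10 with Bowtie 1.2.2 (unique best hits), collapsed reads by identifier, and counted the 3′ end of the nascent RNA by strand over Ensembl genes with CAGE-corrected starts. Counts of the Drosophila spike-in were not analysed. The deposited comparison gives a mean normalized signal, which the authors scaled in DESeq2 with size factors they supplied, by their methods from the spike-in. From it the factors were recovered by regression on the counts (0.699 and 0.740 for the controls, 1.32 and 1.24 after depletion), and served as an alternative scaling. The methods describe 1 factor per condition, and why these differ between replicates was not resolved. Its columns of fold change, error, p-value and adjusted p hold the authors' own comparison and were not used.

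Genes were filtered with filterByExpr in edgeR 4.0.16 (minimum count 10, minimum total 15), keeping 11853 and dropping 633, and tested with the two-sided quasi-likelihood test under TMM scaling with condition as the only term (R 4.3.3). The threshold for a call was an adjusted p below 0.05. CPM are counts scaled to 1000000 per TMM-adjusted library. Standard errors follow from the F statistic, and 95% intervals use 27 degrees of freedom. Total counts between 3298864 and 6045216 give the precision stated beside each value, and intervals cover the spread between libraries, which may be technical. Sampling noise alone did not cover the differences between replicates (chi-square divided by its degrees of freedom, 1.90 for the controls and 1.51 for the depletion pair). Alternatives were DESeq2 1.42.0, limma-voom (limma 3.58.1), a likelihood ratio test, other scalings and filters, offsets for a length trend, a replicate block and leaving out each library.

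Members were matched by identifier to GENCODE M21, which held 12474 of the 12486 identifiers. Unique 28-base stretches were counted on both strands of GRCm38.p6 (Python 3.11.15), and promoters are RefSeq's on that build. Scripts were tested on simulated data. Members, lists and tests were chosen with earlier results of these data known. The genes named are, in each family, those with the highest mean CPM and the highest and lowest fold change, called genes of the lists, Slbp, Npat, Casp8ap2 and Zfp574; the other genes given with values were chosen after their values were seen.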

Additional observations from a re-analysis of the deposited data

How the results depend on the processing

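The count of called histone genes was 0 in either direction in edgeR with TMM scaling, and remained 0 at 2-fold under every alternative run. Under an adjusted p alone, 1 gene, H2ac13, was lower with the recovered size factors, where 747 of all 11853 genes were called. It was also lower with the replicate block, where 666 of all 11853 genes were called. Without control replicate 1 the log2 fold change was −0.63 for H2ac13 and 0.20 for H1f5. The calls of histone genes depended on which library was left out. No shared effect of replicate number was detected (correlation of replicate deviations between conditions 0.034). This cannot tell whether libraries of the same number were prepared together. The replicate block changed no other call among the histone genes, while it moved the calls over all genes from 298 to 666.

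Medians moved with scaling by its construction: with the recovered factors, all histone genes −0.078, H1 −0.035, H2B −0.11, H3 −0.053 and H4 −0.022, where all genes had −0.11. Of these, all but H2B changed sign. By column totals the H4 median was 0.046. A mean count of at least 100 gave H2B −0.11. Alternatives chosen after seeing the data gave 0.14 for H2B and 0.0045 for H4 over members with at least 50% unique stretches, and 0.045 for H4 as a ratio of summed CPM. When each library was left out, medians ranged from 0.0085 to 0.04 for all histone genes, 0.03 to 0.11 for H1, −0.09 to 0.01 for H2A, −0.02 to 0.06 for H2B, 0.044 to 0.15 for H3 and 0.032 to 0.13 for H4, and the H1 minus core difference from −0.0041 to 0.11. In these fits the lone library of a group is assumed to vary like the other group. Apart from scaling and fewer members, the cause was not tested. The remaining 149 values of summary results and 191 of single genes kept their side of the threshold or lay within the spread between replicates. Few unique stretches, few counts per gene and 2 libraries per group limit the core families most.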
